A study of Mus musculus with 12 samples.

Results

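The genes described here encode the autophagy machinery and its cargo receptors, 35 genes chosen by name and read from striatal RNA of 12 mice. For each gene, of the probe sets mapped to it and to no other gene, the brightest on average over the 12 arrays was used. This gave values for 33 of the 35 members, among 18193 genes represented in the same way. Optn, a cargo receptor, has no probe set in the probe table used here. Bnip3l, a mitophagy receptor, has 3 probe sets that are all shared with Bnip3l-ps, so no value is given for it. RNA from the striatum of each mouse was labelled with biotin and hybridised to its own Affymetrix Mouse Genome 430 2.0 array. The Q92 mice were HdhQ92/Q92, with 92 CAG repeats from exon 1 of the human Huntington's disease gene placed in the endogenous mouse gene, and the other mice were wild type. All were labelled C57BL/6. There were 3 mice in each of 4 groups, namely wild type at 3 months (100 to 103 days, 1 female and 2 males), Q92 at 3 months (100 to 103 days, 2 females and 1 male), wild type at 18 months (596 to 604 days, 2 females and 1 male) and Q92 at 18 months (567 to 596 days, 2 females and 1 male). Mice are named by group and animal number, with m for months.

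Autophagy encloses cytoplasm in a double membrane, the autophagosome, which then fuses with the lysosome. The ULK1 kinase complex starts the process, the class III PI3-kinase complex around beclin 1 marks the membrane with PI3P, ATG9A and ATG2A supply lipid, and a pair of ubiquitin-like conjugation systems attach ATG8 proteins (the LC3 and GABARAP families) to the growing membrane. Cargo receptors such as p62 (Sqstm1) bind both ubiquitin on the cargo and ATG8 proteins on the membrane. In neurons the pathway runs constitutively, and it is one of the routes by which huntingtin protein can be degraded. The arrays measure RNA, so they give neither the lipidated form of LC3 nor the flux through the pathway.

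Levels are log2 signals of single mice, or group means ± SD (n = 3). Differences are on the same log2 scale, taken as Q92 less wild type or as the older less the younger age. The arrays correlated with each other at 0.983 to 0.995. The projection neuron genes Ppp1r1b (9.49 to 11.3 over the 12 mice) and Penk (10.2 to 11.8) were bright on all 12 arrays, as the striatal label requires. Array Q92_18m_66 had the lowest value of all 12 mice in 8 of the 33 members and the highest in 8 others, more than any other array at either end. Without it, the difference turned sign or moved by over 1.5 times in 21 of 33 members between Q92 and wild type at 18 months, in 18 for the interaction and in 20 for age in Q92 mice. Values without it are given for the members these results turn on. In bulk tissue, fewer cells of a type and less RNA per cell cannot be told apart.

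The 33 members spanned mean signals from 6.03 (Atg10) to 11.7 (Gabarapl1), and none lay below the 40th percentile of all probe sets. Levels of different probe sets are not compared here, because each has its own binding strength. Within a probe set the mice were close together. The span from the lowest to the highest of the 12 mice had a median of 0.45 over the members and was under 0.5 in 21 of 33. It was narrowest for the ubiquitin-binding receptor Nbr1 (0.20, from 9.68 to 9.88) and widest for Pik3r4 (1.29, from 7.30 to 8.58), the regulatory kinase-like subunit of the PI3-kinase complex, and for Ambra1 (1.22, from 6.14 to 7.36), a beclin 1 partner.

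**Figure D1:**
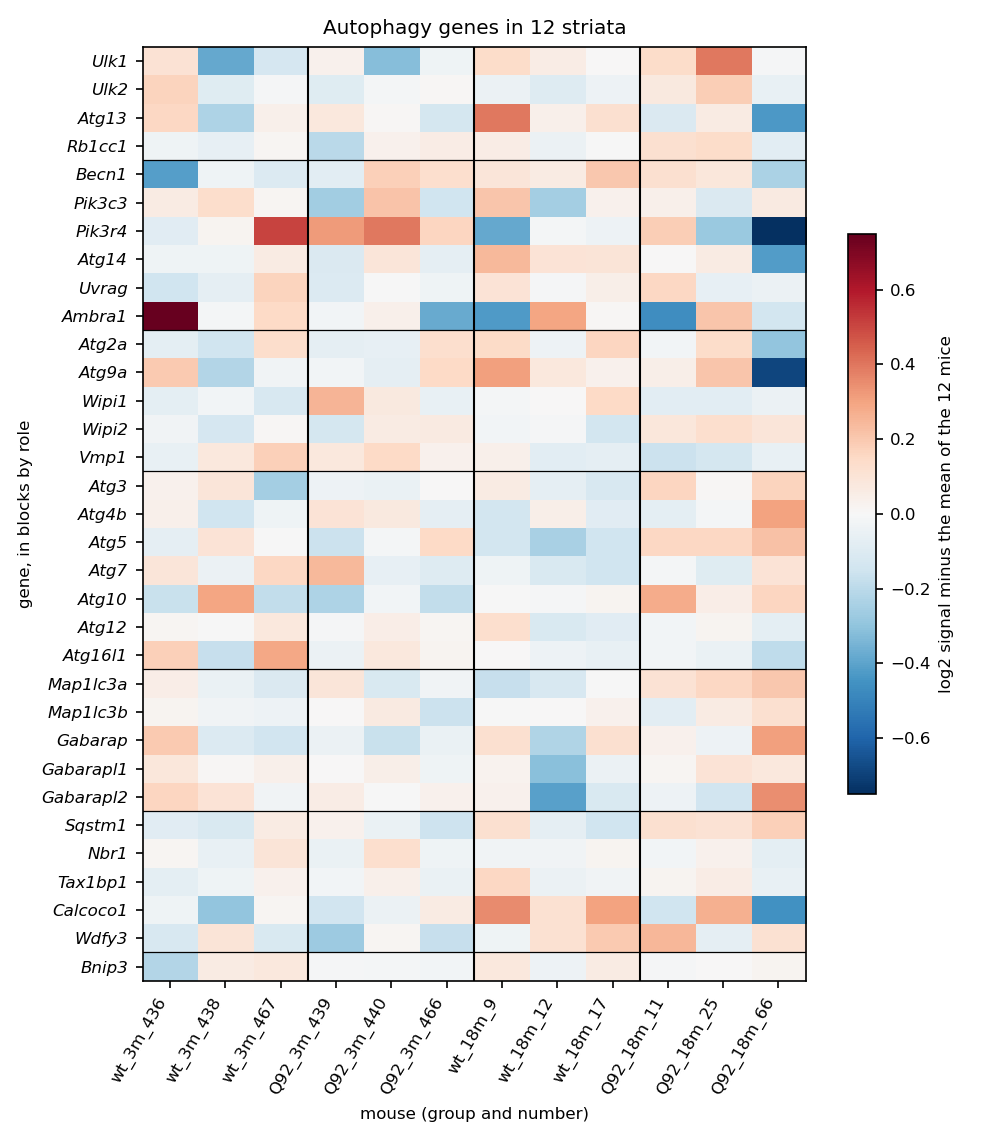
Each row is an autophagy gene and each column a mouse; colour gives the log2 signal minus that gene's mean over the 12 mice, with blocks of rows by role and blocks of columns by group. Most cells are pale, and the strongest colours sit in single mice, such as Ambra1 in wt_3m_436 and Pik3r4 and Atg9a in Q92_18m_66.

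Promoter sequence was examined for the letters CACGTG, the palindromic E-box core that TFEB, a transcription factor of lysosomal and autophagy genes, is known to bind. RefSeq promoters of build GRCm38.p6, from 250 bases before to 50 after each gene's start, were found for 27 of the 35 members. The motif was present in 5 of the 27 (18.5%), against 8.09% of the 27025 genes with a promoter in the table, and it reads the same on both strands. The windows of 30 bases around each match are shown, since these are the members whose values can be set beside the motif; capitals mark CACGTG. Atg14 lies at chr14:47568418-47568447 on the minus strand, with the motif beginning 1 base before the start. Atg3 has a pair of matches on the plus strand, at chr16:45158723-45158752 and chr16:45158746-45158775, beginning 94 and 71 bases before it. The Atg5 match is at chr10:44268313-44268342 on the plus strand (14 bases before the start), that of Atg7 at chr6:114670952-114670981 on the plus strand (132 bases) and that of Bnip3 at chr7:138909597-138909626 on the minus strand (108 bases).
Atg14: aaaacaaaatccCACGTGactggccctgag
Atg3, distal: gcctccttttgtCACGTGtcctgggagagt
Atg3, proximal: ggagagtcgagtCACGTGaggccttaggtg
Atg5: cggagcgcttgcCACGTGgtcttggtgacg
Atg7: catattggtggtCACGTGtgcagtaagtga
Bnip3: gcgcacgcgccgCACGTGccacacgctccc
In the comparison of Q92 with wild type at 18 months, these 5 genes had a median difference of 0.10 (3 means higher and 2 lower), and the 21 measured members whose promoter lacks the letters had a median of -0.01 (10 higher and 11 lower). Without Q92_18m_66 the median of the 5 was 0.05, and that of the 21 was not taken. The motif was chosen with earlier results of these data known, and the 5 include Atg5. A match describes the sequence only and says nothing about binding in these samples.

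The first question was whether RNA of the autophagy genes differed between Q92 and wild-type striatum at 18 months. None of the 33 members passed an adjusted p of 0.05 in limma, where 24 of all 45037 probe sets did (0.0533%). An unadjusted p under 0.05 was reached by 5 members, 2 higher (Atg5 and Map1lc3a) and 3 lower (Atg13, Calcoco1 and Atg14), against 8.03% of all represented genes. The count was 2 without Q92_18m_66, 3 without either wt_18m_9 or wt_18m_17, and 2 with the 18S ribosomal RNA signal as a covariate. The members' median difference was 0.01 and that of all represented genes -0.00, with 18 member means higher and 15 lower in Q92. Every member difference lay between -0.37 and 0.36. The 95% interval of the difference stayed within 1.5-fold in either direction for 28 of the 33 and within 2-fold for all 33. The SE of a member's difference had a median of 0.11, which is the precision that 3 arrays per group gave.

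Atg5 is the acceptor of ATG12 in the conjugate that drives ATG8 lipidation. It read 7.08, 7.08 and 7.15 in the Q92 mice and 6.79, 6.68 and 6.78 in the wild-type mice at 18 months. The groups did not overlap, and the Q92 mean was the higher one by 0.36 (SE 0.10, 95% interval 0.15 to 0.56, 1.28-fold), with an adjusted p of 0.284 in limma. Groups without overlap were found in 6 members (4 higher and 2 lower), against 14.0% of all represented genes. The other members without overlap were Map1lc3a, Wipi2 and Atg10 (higher) and Atg14 and Wipi1 (lower).

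In the initiation kinase complex, 3 of 4 means were higher in Q92 mice. Atg13, the scaffold that ULK1 phosphorylates, was the exception. It read 7.32, 7.49 and 6.99 in Q92 mice and 7.82, 7.46 and 7.55 in wild-type mice, a difference of -0.34 (SE 0.14, adjusted p = 0.586) that became -0.21 without Q92_18m_66. Ulk1, the kinase itself, read 7.77, 8.03 and 7.63 against 7.77, 7.69 and 7.64, and the groups overlapped (0.11, SE 0.14, adjusted p = 0.923). Without Q92_18m_25, the mouse with the highest Ulk1 value of all 12, the difference was 0.00, and without Q92_18m_66 it was 0.20. Ulk2, its paralogue, had a difference of 0.13 and Rb1cc1 (FIP200), the large scaffold subunit, one of 0.06 (0.12 without Q92_18m_66).

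In the PI3-kinase complex and its regulators, 5 of 6 means were lower in Q92 mice (median -0.11), and 4 of 6 without Q92_18m_66 (median -0.02). Atg14, which directs the complex to the site where autophagosomes form, read 6.68, 6.74 and 6.26 in Q92 mice and 6.92, 6.78 and 6.78 in wild-type mice. Its groups did not overlap, and the difference was -0.26 (SE 0.12, adjusted p = 0.630), or -0.12 without Q92_18m_66. Becn1 (beclin 1), the core subunit that binds regulators, read 9.22, 9.19 and 8.86 against 9.19, 9.16 and 9.30. The 2 other Q92 mice lay within the wild-type range, and the difference of -0.13 (SE 0.13, adjusted p = 0.887) was -0.01 without Q92_18m_66. The catalytic subunit Pik3c3 (VPS34) had a difference of 0.01, Uvrag, which defines the endosomal form of the complex, one of -0.03, and Ambra1 one of -0.09. Pik3r4 had a difference of -0.15, which became 0.10 without Q92_18m_66.

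Of the genes for membrane supply and PI3P effectors, 4 of 5 means were lower (median -0.11, or -0.03 without Q92_18m_66). Atg9a, the lipid scramblase on the vesicles that seed autophagosomes, read 7.77, 7.93 and 7.04 in Q92 mice and 8.03, 7.80 and 7.76 in wild-type mice. The low value came from Q92_18m_66, and the difference was -0.29 (SE 0.19, adjusted p = 0.786) with that array and -0.01 without it. Atg2a, the lipid transfer protein, had a difference of -0.15 (-0.03 without Q92_18m_66) and Vmp1, an endoplasmic reticulum scramblase, one of -0.08. The PI3P-binding Wipi proteins pointed in opposite directions, each without overlap between the groups. Wipi2, which recruits ATG16L1, read 7.77 ± 0.02 against 7.61 ± 0.07 (0.16, SE 0.09, adjusted p = 0.715), and Wipi1 read 7.36 ± 0.02 against 7.48 ± 0.09 (-0.11, SE 0.09, adjusted p = 0.840).

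In the conjugation machinery, 6 of 7 means were higher in Q92 mice (median 0.13), and the median was 0.05 without Q92_18m_66. After Atg5 the differences were 0.16 for Atg10, the E2-like enzyme for ATG12, 0.15 for Atg3, the E2-like enzyme for ATG8 proteins, 0.13 for the protease Atg4b and 0.10 for the E1-like enzyme Atg7. Without Q92_18m_66, Atg4b was at 0.01 and Atg7 at 0.05. Atg12 itself was at 0.00 and Atg16l1, which places the conjugate on the membrane, at -0.06. Atg10 read 6.31, 6.08 and 6.19 in Q92 mice and 6.02, 6.02 and 6.04 in wild-type mice, without overlap (SE 0.13, adjusted p = 0.831). The differences of Atg12, Pik3c3 and Wdfy3 were so close to 0 that shifting each array to a common median turned their sign.

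The ATG8 family had all 5 means higher in Q92 mice at 18 months (median 0.17), and 3 of 5 without Q92_18m_66 (median 0.07). Map1lc3a (LC3A) read 10.67, 10.72 and 10.77 in Q92 mice and 10.39, 10.45 and 10.57 in wild-type mice. All 3 Q92 values lay above all 3 wild-type values, and the difference was 0.25 (SE 0.09, 95% interval 0.06 to 0.45, adjusted p = 0.492). Map1lc3b (LC3B), the form most used to follow autophagosomes, read 10.20, 10.34 and 10.40 against 10.28, 10.28 and 10.31 and straddled the wild-type values (0.02, SE 0.09, 95% interval -0.17 to 0.22). The GABARAP proteins act in later steps of autophagosome maturation. Gabarap read 10.30, 10.22 and 10.57 against 10.38, 10.03 and 10.38 (0.10, SE 0.13), and the difference was -0.01 without Q92_18m_66 and -0.02 without wt_18m_12. Gabarapl1 read 11.72, 11.81 and 11.78 against 11.74, 11.39 and 11.66, a difference of 0.17 (SE 0.10, adjusted p = 0.709), or 0.07 without wt_18m_12, the lowest of the 12 mice for this gene. Gabarapl2 read 9.67, 9.57 and 10.05 against 9.74, 9.30 and 9.60, a difference of 0.22 (SE 0.14, adjusted p = 0.754). It was 0.07 without Q92_18m_66 and 0.10 without wt_18m_12.

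Among the cargo receptors, Sqstm1 (p62), which is itself degraded by autophagy, read 10.72, 10.71 and 10.78 in Q92 mice at 18 months and 10.72, 10.54 and 10.46 in wild-type mice. The highest wild-type mouse, wt_18m_9, reached the Q92 values. The difference was 0.17 (SE 0.10, 95% interval -0.04 to 0.38, adjusted p = 0.724), 0.24 without wt_18m_9 and 0.11 without wt_18m_17. Calcoco1, a receptor for selective turnover of the endoplasmic reticulum, read 6.11, 6.53 and 5.80 against 6.61, 6.37 and 6.56. Its groups overlapped, and the difference of -0.37 (SE 0.16, adjusted p = 0.600) ran from -0.56 without Q92_18m_25 to -0.20 without Q92_18m_66. Nbr1 (-0.01), Tax1bp1 (-0.02), both ubiquitin-binding receptors, and Wdfy3 (0.01), the ALFY adaptor for protein aggregates, had intervals within 0.26 of 0. Without Q92_18m_66 the sign of 7 of the 33 differences at 18 months turned. Pik3r4 was then at 0.10, and the other 6 (Gabarap, Map1lc3b, Nbr1, Pik3c3, Tax1bp1 and Uvrag) lay between -0.03 and 0.01. Atg16l1 was at -0.01. The mitophagy receptor Bnip3 read 9.91, 9.91 and 9.93 in Q92 mice against 9.99, 9.87 and 9.98 (-0.03, SE 0.09).

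**Figure D2:**
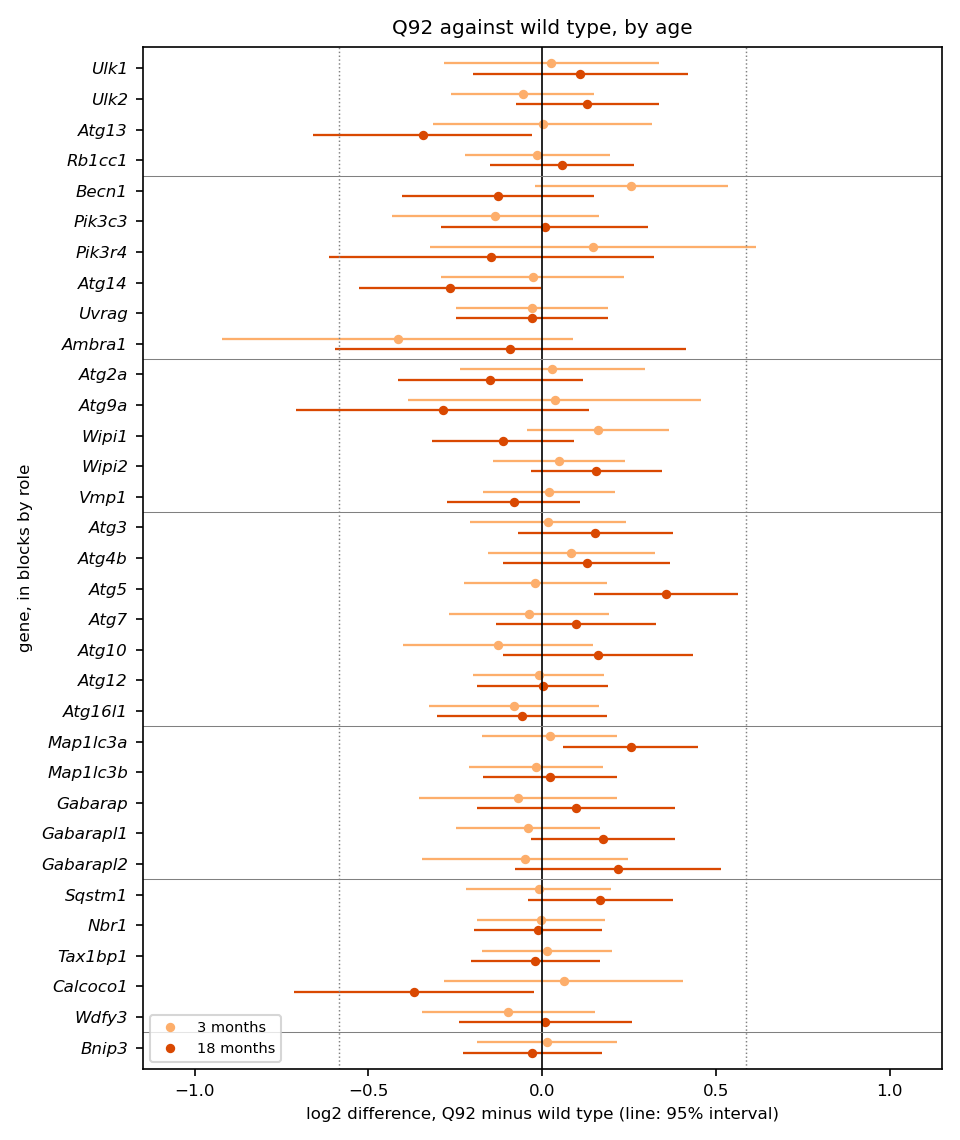
Points give the log2 difference of Q92 minus wild type for each of the 33 autophagy genes at 3 months (light orange) and 18 months (dark orange), lines the 95% interval, and dotted lines a 1.5-fold difference either way. At 18 months 28 of 33 intervals stay within the dotted lines and the points run from -0.37 (Calcoco1) to 0.36 (Atg5).

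Other measures differed between the same groups at 18 months. The striatal projection neuron markers, of which 11 of 12 were measured, were lower in the Q92 mean in 11 of 11 (median -0.89), and Penk passed (-1.26, adjusted p = 0.00113 in limma). Their mean deviation from the 12-mouse average was -0.63, -0.41 and -1.06 in the 3 Q92 mice and 0.26, 0.10 and 0.20 in the wild-type mice. Markers of neurons in general were higher in 7 of 8 (median 0.08), at 0.18, 0.07 and 0.04 against 0.05, -0.13 and -0.01. Choroid plexus markers were lower in 6 of 8 (median -0.24), at -0.42, 0.62 and -0.09 against -0.60, 1.87 and -1.02. Cortical excitatory neuron markers (7 of 8 measured) stood at 0.92, 0.76 and -0.41 in Q92 mice against 0.22, -0.19 and -0.12 in wild-type mice. Thalamic and pallidal markers (7 of 7) stood at -0.71, -0.51 and 0.95 against -0.30, 0.59 and 0.61, and microglial markers (9 of 9) at -0.13, -0.17 and 0.53 against 0.13, 0.24 and 0.55. Vascular markers were lower in 8 of 8 (median -0.17), at -0.03, -0.23 and -0.02 in Q92 mice against 0.03, 0.18 and 0.16, without overlap. Astrocyte markers were lower in 8 of 9 (median -0.23), at -0.21, -0.09 and 0.21 against 0.18, 0.18 and 0.21, and oligodendrocyte markers in 6 of 8 (median -0.13), at -0.31, -0.09 and 0.07 against 0.04, 0.09 and 0.15. None of the vascular, astrocyte or oligodendrocyte markers passed. The 18S ribosomal RNA control (3 prime) read 7.19, 6.51 and 8.01 in Q92 and 6.53, 6.65 and 6.64 in wild-type mice. The Q92 mice were also younger in days on average. A block for age in days leaves Q92_18m_11 alone against wt_18m_12 and wt_18m_17, too few mice for a test. The part of these measures in the members' differences was not tested; log2 array signals have no zero, so no marker can be read as absent.

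At 3 months the question was whether the autophagy genes differed before the older age. None of the 33 members passed in limma, where 5 of all 45037 probe sets did (0.0111%), and none reached an unadjusted p under 0.05, against 2.27% of all represented genes. Without wt_3m_438 the count was 3, and without either Q92_3m_439 or Q92_3m_466 it was 1. The groups overlapped in all 33, while 6.64% of all represented genes had groups without overlap. The median difference was -0.01, against -0.02 over all represented genes, with 15 means higher and 18 lower. The 95% interval stayed within 1.5-fold for 31 of 33 members. Choroid plexus markers were higher in Q92 mice in 8 of 8 (median 0.67), with mean deviations of 2.04, -0.57 and -0.27 against -0.36, -0.65 and -0.56. The high value was that of Q92_3m_439. Oligodendrocyte markers were higher in 8 of 8 (median 0.16), and projection neuron markers lower in 8 of 11 (median -0.02). The part of these markers in the members' differences was not tested.

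The smallest p-values at 3 months belonged to Becn1, Ambra1, Wipi1, Atg10 and Pik3c3, each with an adjusted p of 1.00. Becn1 read 9.02, 9.28 and 9.22 in Q92 mice and 8.69, 9.07 and 9.0 in wild-type mice. The low value of wt_3m_436 set much of the difference, which was 0.26 (SE 0.13) with that mouse and 0.14 without it. Ambra1 read 6.58, 6.64 and 6.23 against 7.36, 6.59 and 6.75, and the high value again came from wt_3m_436, so that the difference was -0.42 (SE 0.23) with that mouse and -0.19 without it. Wipi1 read 7.68, 7.50 and 7.38 against 7.36, 7.41 and 7.31, with a difference of 0.16 (SE 0.09), or 0.078 without Q92_3m_439. Atg10 differed by -0.13 (SE 0.13), or 0.03 without wt_3m_438, its highest mouse, and Pik3c3 by -0.13 (SE 0.14), or from -0.27 without Q92_3m_440 to -0.037 without Q92_3m_439. The other described members lay close to 0, with differences of 0.03 for Ulk1, 0.02 for Map1lc3a, -0.02 for Map1lc3b, -0.07 for Gabarap, -0.04 for Gabarapl1, -0.05 for Gabarapl2 and -0.01 for Sqstm1. The interval of Sqstm1 ran from -0.22 to 0.20.

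Whether the genotype difference itself differed between the ages was tested as an interaction. None of the 33 members passed, and none of the 45037 probe sets did (0%). An unadjusted p under 0.05 was reached by 1 member, Atg5, against 5.80% of all represented genes, and by 4 without Q92_18m_25, 3 without Q92_3m_439 and 2 without either wt_3m_438, Q92_3m_466 or Q92_18m_11. The genotype difference of Atg5 was 0.38 larger at 18 than at 3 months (SE 0.13, 95% interval 0.08 to 0.67, adjusted p = 0.946 in limma). The next members by p were Becn1 (-0.38, SE 0.18), Wipi1 (-0.27, SE 0.13), Calcoco1 (-0.43, SE 0.22) and Map1lc3a (0.23, SE 0.13), with adjusted p-values of 0.946 to 0.950. The values were positive in all 7 conjugation genes (median 0.13) and all 5 ATG8 genes (median 0.22), and in 6 of 7 and 4 of 5 without Q92_18m_66. Over the alternative settings described below, the value of Gabarapl2 ran from -0.19 to 0.37 and that of Map1lc3b from -0.08 to 0.10. For the remaining described members the values were 0.18 for Sqstm1, 0.08 for Ulk1, 0.27 for Gabarapl2, 0.22 for Gabarapl1, 0.17 for Gabarap and 0.04 for Map1lc3b. Without Q92_18m_66 they were 0.17 for Ulk1, 0.12 for Gabarapl2, 0.07 for Gabarap and -0.00 for Map1lc3b, and that of Calcoco1 was -0.26. The median over the members was 0.04 and over all represented genes 0.02. Intervals were wider here, and 23 of 33 stayed within 1.5-fold. In the same contrast the values of projection neuron markers were negative in 11 of 11 (median -0.98) and those of microglial markers in 9 of 9 (median -0.42). Oligodendrocyte and vascular markers were negative in 8 of 8 each (medians -0.36 and -0.28). Choroid plexus markers were negative in 8 of 8 (median -0.95) and astrocyte markers in 8 of 9 (median -0.20). Cortical excitatory neuron markers were positive in 7 of 7 (median 0.52). The part of these markers in the members' values was not tested.

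**Figure D3:**
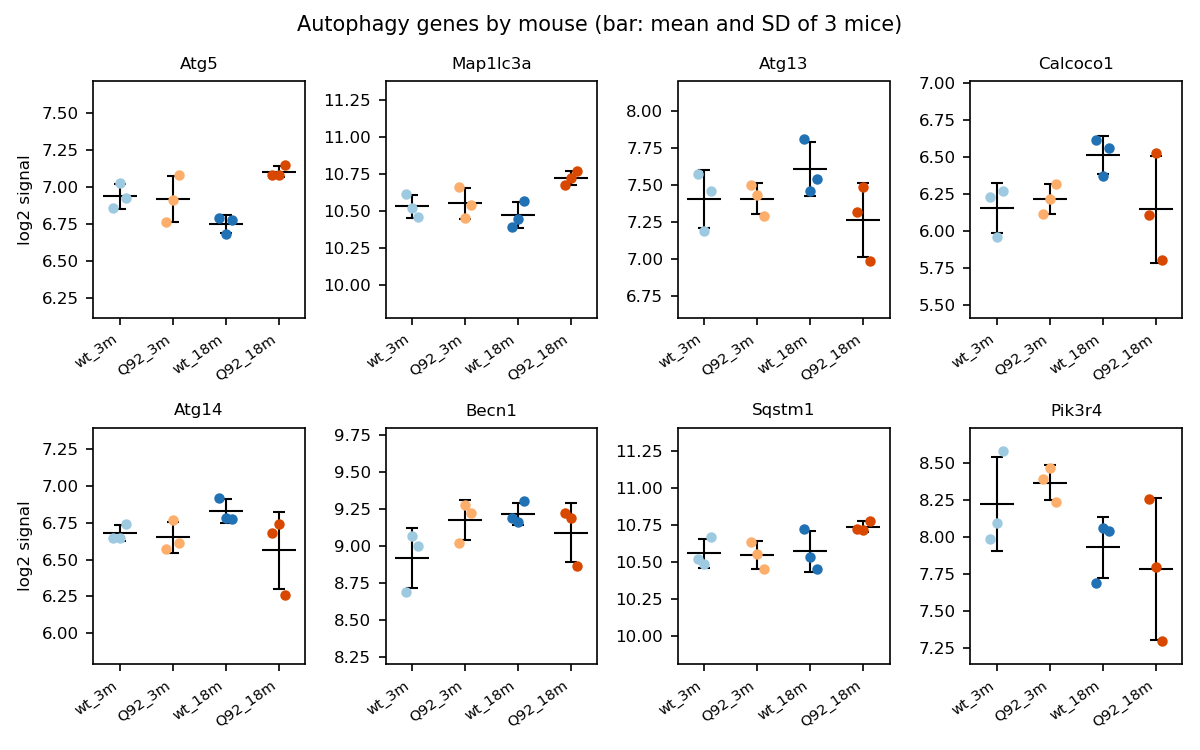
Each panel shows 1 autophagy gene, with points for the 12 mice by group and bars for the mean and SD of 3 mice, on a log2 signal axis of equal span in all panels. Atg5 and Map1lc3a show Q92 mice above wild-type mice at 18 months, and in Atg13, Atg14, Calcoco1 and Pik3r4 the lowest point at 18 months is the Q92 mouse numbered 66.

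The remaining question was how the members differed between 18 and 3 months within each genotype. In wild-type mice none of the 33 passed in limma, where 23 of all probe sets did (0.0511%), and 2 members reached an unadjusted p under 0.05, both higher at 18 months, against 11% of all represented genes. The count was 0 without wt_18m_17 and 1 without either wt_3m_436, wt_18m_9 or Q92_3m_440, the last of which enters only through the shared spread. Becn1 read 9.19, 9.16 and 9.30 at 18 months and 8.69, 9.07 and 9.0 at 3 months, without overlap (0.30, SE 0.13, adjusted p = 0.446), and the difference was 0.18 without wt_3m_436. Calcoco1 read 6.61, 6.37 and 6.56 against 6.23, 5.96 and 6.27, also without overlap (0.36, SE 0.16, adjusted p = 0.456). Groups without overlap were found in 5 members (4 higher and 1 lower), against 18.6% of all represented genes. The lower one was Atg5, at 6.79, 6.68 and 6.78 against 6.86, 7.03 and 6.93 (-0.19, SE 0.10, adjusted p = 0.517), and the other higher ones were Wipi1 (0.12) and Atg14 (0.15). Gabarapl2 (-0.24, SE 0.14) and Gabarapl1 (-0.15, SE 0.10) came next by p, and both were nearer to 0 without wt_18m_12 (-0.12 and -0.05). Sqstm1 stood at 10.57 ± 0.14 at 18 months and 10.56 ± 0.10 at 3 months (0.01, SE 0.10). Ulk1 differed by 0.20, Map1lc3a by -0.06, Map1lc3b by 0.02 and Gabarap by 0.02. The median over the members was 0.01, and -0.01 over all represented genes. Markers of other cell types also differed between these groups. Microglial markers were higher at 18 months in 8 of 9 (median 0.40), oligodendrocyte markers in 8 of 8 (median 0.14) and vascular markers in 7 of 8 (median 0.16). Choroid plexus markers were higher in 8 of 8 (median 0.60), with mean deviations of -0.60, 1.87 and -1.02 against -0.36, -0.65 and -0.56. The high value was that of wt_18m_12 alone. Thalamic and pallidal markers were higher in 7 of 7 (median 0.18), at -0.30, 0.59 and 0.61 against 0.07, 0.30 and -0.63, with overlap. Astrocyte markers were higher in 6 of 9 and lower in 3 (median 0.11). Of the markers in these lists only Gfap, an astrocyte filament protein, passed, and it rose by 1.86 (SE 0.26, adjusted p = 0.0304 in limma). Their part in the members' differences was not tested.

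In Q92 mice none of the 33 passed in limma, where 93 of all probe sets did (0.206%), and 3 members reached an unadjusted p under 0.05 (1 higher and 2 lower), against 12.4% of all represented genes. The count was 1 without Q92_18m_11 and 2 without Q92_18m_66. Pik3r4 read 8.26, 7.80 and 7.30 at 18 months and 8.40, 8.47 and 8.24 at 3 months. It had the largest difference of any member in any of the 5 comparisons (-0.58, SE 0.22, adjusted p = 0.349), but the groups overlapped, and the difference was -0.34 without Q92_18m_66. Atg10 read 6.31, 6.08 and 6.19 against 5.79, 6.01 and 5.84 (0.31, SE 0.13, adjusted p = 0.408), and Vmp1 read 9.51, 9.54 and 9.61 against 9.75, 9.82 and 9.71 (-0.20, SE 0.09, adjusted p = 0.437). Neither gene's groups overlapped.

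Groups without overlap were found in 8 members in this comparison (7 higher and 1 lower), against 17.5% of all represented genes. Besides Atg10 and Vmp1 these were Sqstm1, Atg5, Map1lc3a, Gabarap, Atg3 and Wipi2. Sqstm1 read 10.72, 10.71 and 10.78 at 18 months and 10.64, 10.56 and 10.45 at 3 months (0.19, SE 0.10, adjusted p = 0.518). Wdfy3 read 9.52, 9.20 and 9.38 against 9.0, 9.28 and 9.09 and overlapped (0.24, SE 0.11, adjusted p = 0.483). Ulk1 differed by 0.28, Map1lc3a by 0.17, Gabarap by 0.19, Map1lc3b by 0.07, Gabarapl1 by 0.06, Gabarapl2 by 0.03 and Becn1 by -0.08. The ATG8 means were all 5 higher at 18 months (median 0.07), and 4 of 5 without Q92_18m_66, when Gabarap differed by 0.09, Map1lc3b by 0.02 and Gabarapl2 by -0.12. Becn1 was then at 0.03. The median over the members was 0.03 and over all represented genes 0.01, with 19 means higher and 14 lower. In the same comparison the projection neuron markers had a median of -0.98, with 11 of 11 means lower. Markers of neurons in general were higher in 7 of 8 (median 0.09). Cortical excitatory neuron markers were higher in 6 of 7 (median 0.97), at 0.92, 0.76 and -0.41 against -0.50, -0.54 and 0.33, with overlap. Oligodendrocyte markers were lower in 8 of 8 (median -0.15) and vascular markers in 7 of 8 (median -0.15). Astrocyte markers were lower in 7 of 9 (median -0.13) and choroid plexus markers in 7 of 8 (median -0.41). Of these lists, 3 projection neuron markers passed, and so did the astrocyte bicarbonate transporter gene Slc4a4 (-0.53, SE 0.09, adjusted p = 0.0476 in limma). Their part in the members' differences was not tested. The 2 age comparisons share no mice with each other, but each shares its mice with the genotype comparisons, so that the low wild-type Atg5 values at 18 months enter both the genotype and the wild-type age difference.

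**Figure D4:**
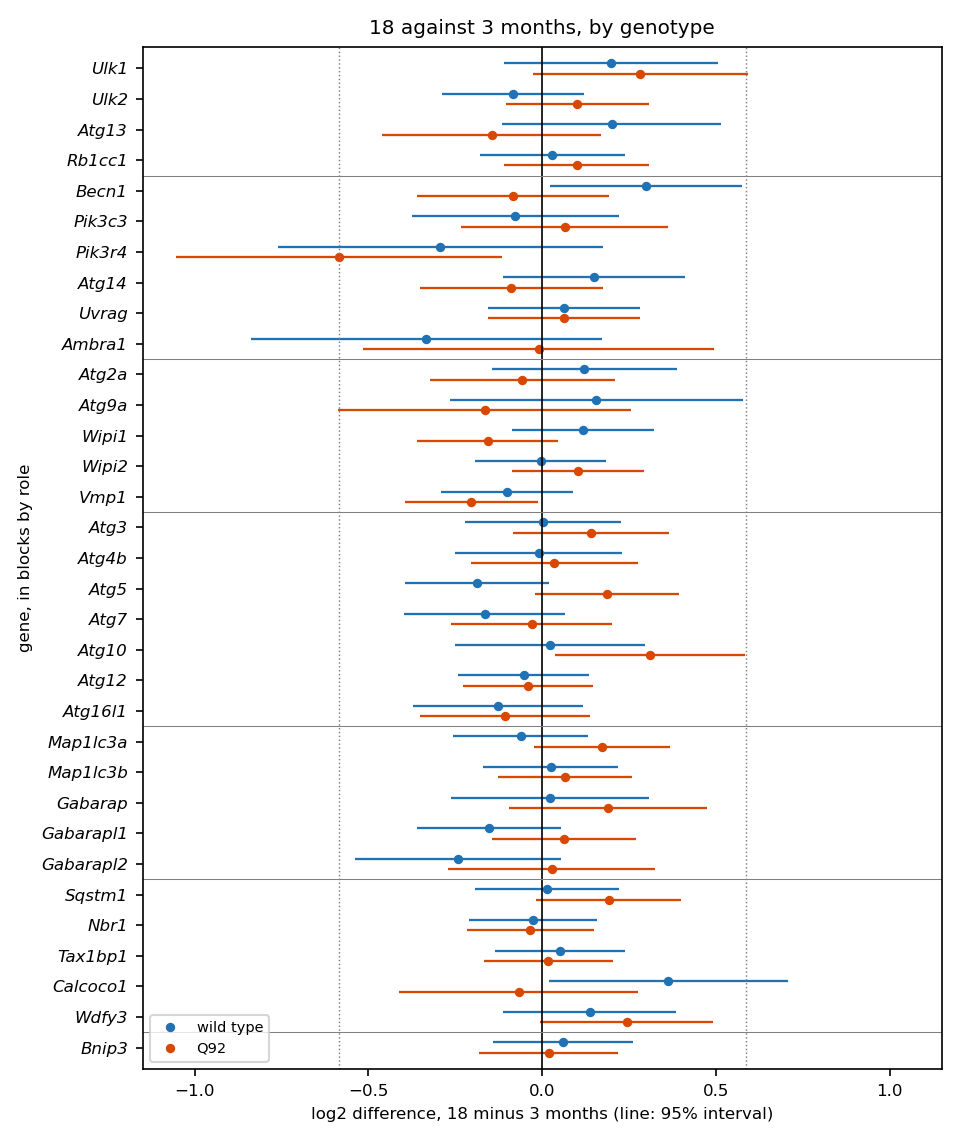
Points give the log2 difference of 18 minus 3 months for each of the 33 autophagy genes in wild-type and Q92 mice, lines the 95% interval, and dotted lines a 1.5-fold difference either way. In both genotypes 30 of 33 intervals stay within the dotted lines, and Pik3r4 in Q92 mice lies farthest from 0 (-0.58).

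The array carries 82 probe sets for the 33 members, and 24 members have more than 1. None of the 82 passed an adjusted p of 0.05 in any of the 5 comparisons, where 0% to 0.206% of all 45037 probe sets did. Between the brightest and the next brightest probe set of those 24 members, the sign of the difference was the same in 17 for Q92 against wild type at 18 months, 12 at 3 months, 18 for the interaction, 13 for age in wild type and 15 for age in Q92. For Atg5 at 18 months the 3 probe sets gave 0.36, 0.04 and 0.13, so the value described above rests on 1 of them. Both Map1lc3a probe sets were higher in Q92 mice at 18 months. The dimmer one, chosen for mention after its values were seen, read 9.06, 9.24 and 9.29 in Q92 mice and 8.59, 8.45 and 8.94 in wild-type mice, without overlap, and its difference of 0.54 (SE 0.12, adjusted p = 0.172) was larger than that of the brighter one. Both Gabarapl1 probe sets gave like values (0.17 and 0.21), as did both Calcoco1 probe sets (-0.37 and -0.36), while those of Gabarapl2 went opposite ways (0.22 and -0.23). The 3 further LC3B probe sets gave 0.04, 0.04 and 0.21. The other probe sets of Becn1 gave 0.04, -0.06, -0.02 and 0.11, and the dim second probe set of Sqstm1 gave -0.04. Of the 33 representative probe sets, 6 carry a suffix (_s_at or _x_at) that marks probes shared with other transcripts by the manufacturer's design, namely those of Atg5, Map1lc3a, Becn1, Gabarapl1, Pik3r4 and Wipi1.

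**Figure D5:**
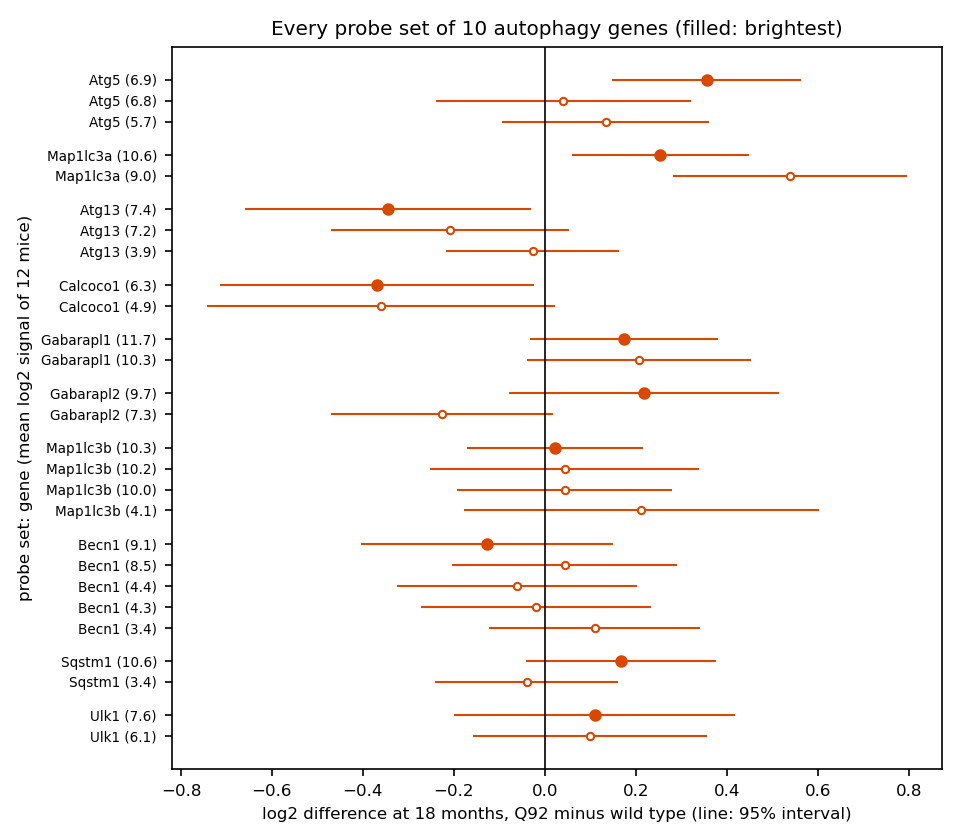
Each point is 1 probe set of 10 autophagy genes, with the log2 difference of Q92 minus wild type at 18 months, its 95% interval, and the mean signal in brackets; filled points are the brightest of each gene. The probe sets of Map1lc3a, Gabarapl1 and Calcoco1 lie on the same side of 0, and those of Atg5, Gabarapl2, Becn1 and Sqstm1 differ in size or sign.

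Genes around the core pathway were also read, in comparisons where 0% to 0.206% of all 45037 probe sets passed. In 4 related lists, none of the 16 other core autophagy genes, the 20 upstream nutrient signalling and transcription factor genes, the 15 transport and fusion genes and the 14 measured (of 15) other selective autophagy receptors passed in any of the 5 comparisons. Their medians at 18 months (Q92 minus wild type) were -0.04, -0.03, -0.03 and 0.06. The 2 genes with the smallest p in each list are given for the same comparison. Being picked by p, they are extremes of their lists and not typical differences. Values without Q92_18m_66 are not given for them. Foxo1, a transcription factor that can induce autophagy genes, had a difference of -0.73 (SE 0.18, adjusted p = 0.223), and Prkaa2, a catalytic subunit of AMP-activated kinase, one of 0.65 (SE 0.23, adjusted p = 0.478). Atg4c, a protease related to Atg4b, had a difference of 0.53 (SE 0.18, adjusted p = 0.444) and Atg2b, the paralogue of Atg2a, one of -0.19. Fyco1, an adaptor between autophagosomes and kinesin, stood at -0.22 and the tethering subunit Vps39 at -0.17. Keap1, which is bound by p62, stood at 0.19 and the mitochondrial protein Nipsnap1 at 0.24.

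With age, the transport and fusion genes had 13 of 15 means higher at 18 months in wild type (median 0.13) and 12 of 15 in Q92 (median 0.07), without any that passed. Lamp2, a lysosomal membrane protein, had a difference of 0.56 (SE 0.13, adjusted p = 0.182) in wild type and 0.31 (SE 0.13, adjusted p = 0.408) in Q92. Stx17, the syntaxin on the mature autophagosome that mediates fusion with the lysosome, had a difference of 0.57 between the ages in Q92 mice (SE 0.10, adjusted p = 0.055 in limma) and one of -0.29 between Q92 and wild type at 3 months (adjusted p = 1.00). These Stx17 comparisons share the Q92 mice at 3 months.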

How the data were processed

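Total RNA from the striatum of 12 mice was hybridised to Affymetrix Mouse Genome 430 2.0 arrays, 1 per mouse. The authors deposited a log2 signal for every probe set on each array, made with RMA in the affy package per the submitters' processing notes. Versions, and whether the 12 arrays were normalised together, are not given in the sources used here. The method brings arrays to a common distribution, so a shift shared by most genes would not be seen.

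The values were used as deposited. Of 45101 probe sets, 64 controls were left out. Probe sets were named through the platform's probe table, in which 34945 have 1 gene, 932 several and 9160 none. A model with 1 mean per group was fitted over 45037 probe sets with limma 3.58.1 in R 4.3.3 (8 residual and 4.50 prior degrees of freedom). The 5 comparisons were tested by moderated statistics, two-sided, with Benjamini-Hochberg adjustment over all probe sets in each comparison and a threshold of 0.05. The fit was checked on simulated data whose changes were larger than any member difference reported here. The check does not show what would be detected at the smaller sizes. Mice carry separate animal numbers and were taken as replicates. Members were described by a rule: every member that passed, otherwise the 5 with the smallest p, and always Sqstm1, Becn1, Ulk1 and the 5 LC3 and GABARAP genes; other members are given by their means and differences. The members, the related lists, the marker lists and the motif were chosen with earlier results of these data known. Alternatives covered the normalisation, probe set choice, low signals, variance model, array weights, sex, age in days, the 18S signal and arrays left out. Promoters came from RefSeq (GRCm38.p6).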

Additional observations from a re-analysis of the deposited data

How the results depend on the processing

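The count of members past the threshold was 0 in all 122 combinations of a comparison with 1 of 25 alternatives, 12 of which left out 1 array each. Over all probe sets, and apart from the block for age in days, genotype had 8 to 56 calls at 18 months and 1 to 5 at 3 months. The interaction had 0 to 3, age in wild type 0 to 56 and age in Q92 7 to 195. For the 5 genes with the smallest p in each comparison, 10 of 605 values changed sign. For the genes always described (Sqstm1, Becn1, Ulk1 and the LC3 and GABARAP genes, where not among those 5), 63 of 777 did, in 20 of 32 results. None of either came past the threshold. Both totals include settings that leave the difference itself unchanged, so that its sign could not turn. These are the low-signal filter, the variance model, only the arrays compared, and arrays left out of groups not compared. With the next brightest probe set, the sign turned for Becn1 (-0.086) and Wipi1 (-0.020) at 3 months, Becn1 in the interaction (0.13), Becn1 (-0.029), Calcoco1 (-0.15), Atg5 (0.15) and Gabarapl2 (0.19) for age in wild type, and Wdfy3 (-0.052) and Sqstm1 (-0.076) for age in Q92. These are other probes of the same genes, and the cause was not tested. The value of Atg10 at 3 months ran from -0.21 to 0.031 with 1 array left out. The members' median at 18 months ran from -0.018 to 0.043 with 1 array left out and was 0.087 with a block for age in days, which leaves 4 residual degrees of freedom; the interaction median was 0.091 with that block, and the wild-type age median was -0.066 with the next brightest probe set. The 18S (5 prime) covariate was added after the data were seen. No scaling moved the median of all genes by over 0.1. No paired analysis was possible because the animal numbers are unique and no number is shared between groups. The block for age in days pairs no individuals, and its 18-month comparison rests on Q92_18m_11 against wt_18m_12 and wt_18m_17. The 3 arrays per group limit the precision throughout.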
